A study of Mus musculus with 60 samples.

Results

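The trimethyl mark on lysine 27 of histone H3 (H3K27me3) was examined at 10 genes of the bone lineage in mouse mesenchymal progenitor cells that carry tagged forms of H3. They were Runx2, Sp7, Dlx5 and Msx2, which encode transcription factors, Alpl, which encodes an enzyme of mineral formation, and Bglap, Ibsp, Spp1, Dmp1 and Mepe, which encode proteins of the bone matrix. These are 10 of the 21938 protein-coding genes on the main chromosomes of the GENCODE annotation, listed by gene name, with no measured value in the rule, at a time when earlier results of these data were known. Each was followed over its gene body with 50 kb on each side (the window), and over the 1 kb on each side of its start site, on the mm10 build. The cells were C3H 10T1/2, a clonal mouse line, and every group carried a lentiviral human H3.1 transgene with an HA tag, either wild type (H3WT) or with cysteine in place of the arginine at position 2 (H3R2C), 8 (H3R8C), 17 (H3R17C) or 26 (H3R26C). The endogenous H3 genes were intact in all 5 groups, so the H3WT cells were also transgenic. Peaks of H3K27me3 and of the HA tag came from CUT&RUN, a method that cuts chromatin out where an antibody has bound and sequences the fragments. The series labels 3 replicates per genotype and antibody, but in each of those 10 sets of lists 2 replicates held identical values, which were counted as 1 library. The remaining H3R17C list, replicate 1, was left out because the name it was deposited under gives another mark, which left 9 H3K27me3 libraries (2 per genotype and 1 of H3R17C) and 10 HA libraries.

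H3K27me3 is placed by the Polycomb repressive complex PRC2 and is found over developmental genes that a cell keeps silent. In osteoblast formation Runx2 acts first and Sp7 (osterix) downstream of it, while the homeobox factors Dlx5 and Msx2 act in the patterning and early commitment of skeletal cells. Alkaline phosphatase (Alpl) removes pyrophosphate and lets mineral form, and the matrix proteins osteocalcin (Bglap), bone sialoprotein (Ibsp), osteopontin (Spp1), Dmp1 and Mepe belong to later osteoblasts and osteocytes. RNA of these cells was not analysed here, so their state was not checked against marker expression.

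The members differ in the letters before their starts. In the RefSeq promoter table (GRCm38.p6, the assembly of mm10), which holds 300 bases around each start, 8 of the 10 genes were found, and Sp7 and Dlx5 are named without a sequence. CG dinucleotides numbered 26 at the first Alpl start and 22 at the Msx2 start, where 16.9% and 23.1% of the 32817 promoters hold as many or more. The other 6 genes held between 2 (Runx2) and 5 (Ibsp and Dmp1) CG at the start nearest to the GENCODE one, against a median of 7 over all promoters. TATAAA on the gene strand was present in this table at Bglap and Spp1 and in 8.32% of all promoters. TGTGGT, the core letters recognised by Runx factors, was present on either strand at Runx2, Bglap, Spp1, Dmp1 and Mepe and in 16.8% of all promoters. These letter patterns share at most 1 base with each other and are descriptions of the sequence, not binding sites. The 250 bases before the GENCODE starts are shown 5′ to 3′ on the gene strand for a gene marked in every genotype, a gene marked in H3R2C and a gene without the mark, with each CG in capitals, at chr13:53473075-53473324, chr4:137796385-137796634 and chr3:88384465-88384714.
Msx2: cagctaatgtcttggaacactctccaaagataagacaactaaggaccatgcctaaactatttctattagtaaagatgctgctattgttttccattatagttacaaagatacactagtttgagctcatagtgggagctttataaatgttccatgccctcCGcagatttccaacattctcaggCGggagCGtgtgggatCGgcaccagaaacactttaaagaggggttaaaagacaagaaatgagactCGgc
Alpl: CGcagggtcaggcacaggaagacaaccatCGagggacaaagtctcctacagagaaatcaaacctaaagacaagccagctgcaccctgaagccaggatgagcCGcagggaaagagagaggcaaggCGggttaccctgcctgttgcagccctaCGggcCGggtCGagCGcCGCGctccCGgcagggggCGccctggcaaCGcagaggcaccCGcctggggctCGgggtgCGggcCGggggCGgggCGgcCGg
Bglap: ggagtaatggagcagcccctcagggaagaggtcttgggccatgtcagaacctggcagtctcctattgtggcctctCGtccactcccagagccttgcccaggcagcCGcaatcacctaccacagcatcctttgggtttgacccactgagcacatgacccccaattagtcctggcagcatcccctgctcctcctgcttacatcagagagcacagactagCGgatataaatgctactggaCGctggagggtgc
The Alpl stretch held 20 CG, the Msx2 stretch 5 and the Bglap stretch 4. The RefSeq start of Msx2 lies 294 bases inside the GENCODE transcript, and its 22 CG were counted there. The Msx2 stretch printed here, before the GENCODE start, holds TATAAA, as does the Bglap stretch.

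The H3K27me3 lists held 20077 to 24598 peaks and the HA lists 15344 to 52083. Read totals were not used here, so precision rests on the spread between libraries. The signal of a region is the coverage summed over its peaks. It was divided by the median of that library over 5407 regions called in all 9 libraries. A value of 1 is thus the level of a typical region shared by all libraries. A change common to these regions is removed by the scaling, so higher and lower are relative to them. The lowest peak that a library listed lay between 0.119 and 0.189 on this scale. A value of 0 means that no peak was listed, not that the mark was absent below that level. The study describes its replicates as biologically independent, the labels do not say so, and part of the lists were identical. The p-values therefore cover the spread between these libraries, which may be technical. Where both libraries of a genotype stand at 0 they add no spread, and SE and p-values may then be too small. A consensus region is one with a peak in both libraries of at least 1 genotype. A region that qualified through a single genotype had its direction against the others set by that rule, so for such regions values are given and no test.

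Of the 10 members, 5 (Runx2, Bglap, Ibsp, Spp1 and Mepe) had no H3K27me3 peak in the window in any of the 9 lists, where 41.1% of all genes had none. A peak over the start was listed in at least 1 library for 3 members, against 17.4% of all genes, and in all 9 libraries for Msx2 alone, against 3.91% of all genes. Dmp1 and Dlx5 had peaks in their windows and none over the gene or its start. In H3WT, both libraries had a start-site peak at 1 of the 10 genes (8.85% of all genes), and the same count of 1 was found in H3R8C (9.67%), H3R17C (8.83%) and H3R26C (8.45%). In H3R2C the count was 3 of 10 (Msx2, Sp7 and Alpl), whereas 6.97% of all genes had a start-site peak in both H3R2C libraries, the lowest share of the 5 genotypes. With 10 genes, each gene moves these shares by 10 percentage points.

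**Figure D1:**
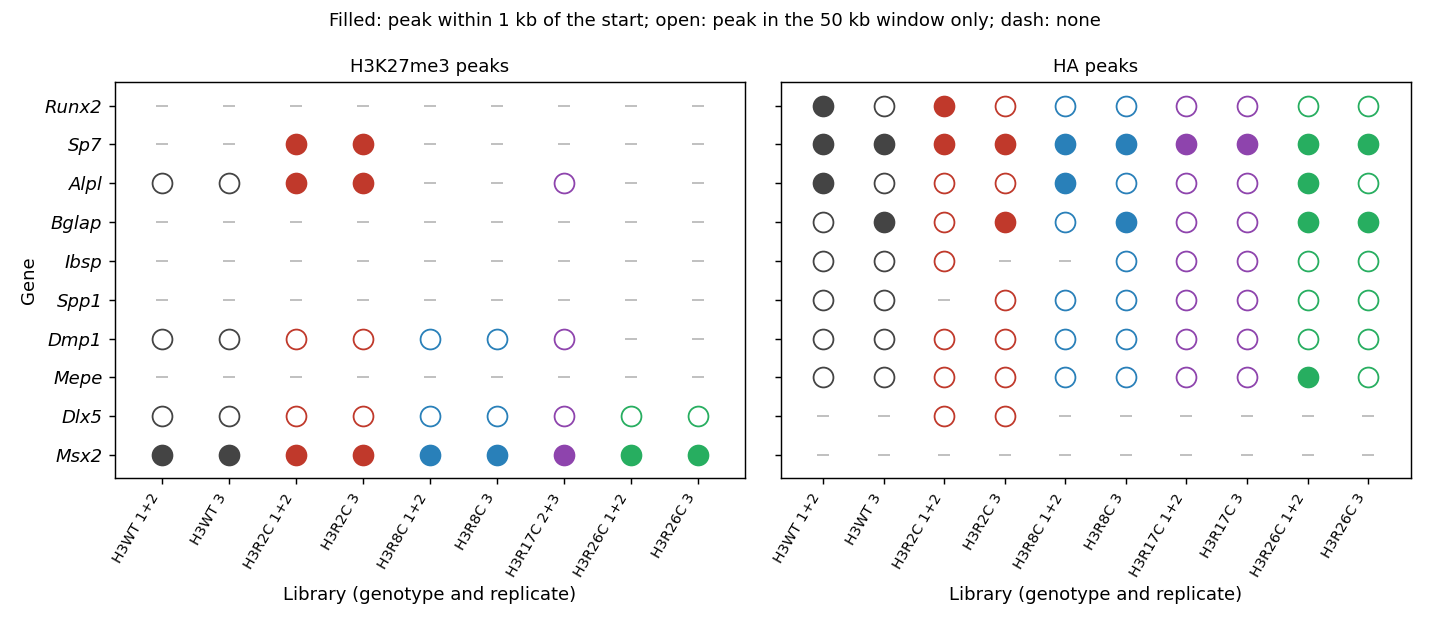
H3K27me3 peaks (left) and HA peaks (right) at the 10 bone genes (rows) in each library (columns, labelled by genotype and replicate, coloured by genotype). Filled circles mark a peak within 1 kb of the start, open circles a peak elsewhere in the gene or its 50 kb flanks, and dashes no peak. Msx2 is filled in all 9 H3K27me3 columns, Sp7 and Alpl are filled in the H3R2C columns, and 5 genes show dashes throughout.

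Msx2, a homeobox factor that acts in skull and limb development, was the one member with the mark over its start in every genotype, and H3R2C cells had far less of it. The consensus region over the start, chr13:53470151-53479000, covers the first 2.9 kb of the gene and 5.9 kb upstream. Its scaled signal was 1.91 and 1.80 in the H3WT libraries, 0.221 and 0.178 in H3R2C, 1.63 and 1.49 in H3R8C, 1.64 in the H3R17C library, and 1.89 and 2.76 in H3R26C. Both H3R2C libraries lay below all 7 others, of which H3WT and H3R26C overlapped and H3R8C was lowest. They were just above the lowest signal that those lists hold (0.149 and 0.172). The H3WT mean of 1.85 ± 0.08 (SD, n = 2) was 9.29-fold that of H3R2C, 0.20 ± 0.03 (SD, n = 2). In limma the difference was -2.23 on the log2(scaled signal + 0.25) scale (SE 0.18, adjusted p = 0.000288), a scale that understates folds of low regions. H3R2C also lay below H3R26C, by -2.50 (SE 0.18, adjusted p = 0.000147). Against H3WT, H3R26C gave 0.27 (adjusted p = 0.384), H3R8C gave -0.22 (adjusted p = 0.670) and H3R17C, with 1 library that was assumed to vary like the others, gave -0.15 (adjusted p = 0.992). Without H3R26C replicates 1 and 2, the H3R26C difference rose to 0.53 with an adjusted p of 0.0464.

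The Msx2 peak was also shorter in H3R2C. It spanned 8.35 and 7.20 kb in H3WT, 2.45 and 1.5 kb in H3R2C, 7.45 and 6.45 kb in H3R8C, 7.85 kb in H3R17C and 7.70 kb in both H3R26C libraries. In H3R2C replicate 3 it began 0.224 kb inside the gene, while in the other 8 lists the peak lay across the start itself. On chromosome 13 the median difference between H3R2C and H3WT over the 174 regions called in every library was -0.28, and that of H3R26C was 0.23. With the medians of each chromosome set to 0 in every library, an alternative chosen after seeing the data, the Msx2 start region differed by -1.82 between H3R2C and H3WT (adjusted p = 0.000465).

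Around Msx2 the window held 6 further regions, weaker than the start region in all libraries but H3R2C replicates 1 and 2, where chr13:53421151-53426800 stood at 0.328. One at 8.8 to 13.3 kb beyond the start, past the 3′ end of the gene (chr13:53459801-53464250), was listed in all 7 libraries of the other genotypes, at 0.202 to 0.497, and in neither H3R2C library. It was lower in H3R2C than in H3WT by -1.17 (SE 0.30, adjusted p = 0.0316), and this passed no longer when any 1 library of H3WT or H3R2C was left out. It also failed with a pseudocount of 1, the signal as deposited, the upper 50% of peaks, an overlap of 50% or chromosome medians set to 0. A region 54 to 56 kb past the start (chr13:53416651-53419300) was listed at 0.166 and 0.165 in H3WT, 0.142 in 1 H3R26C library and in no other, and it qualified through H3WT alone. In H3R26C a pair of regions was listed that no other genotype had. The one inside the gene at its 3′ end (chr13:53466701-53468700) stood at 0.144 and 0.189. The other (chr13:53428801-53431600) stood at 0.157 and 0.272. Both qualified through H3R26C alone, and their values are close to the lowest signal that the H3R26C lists hold (0.132 and 0.189). The last 2 regions, at chr13:53421151-53426800 and chr13:53479901-53482700, passed in no comparison. The region at chr13:53479901-53482700 qualified through H3WT alone. In all, peaks covered 17.6% ± 2.5 of the Msx2 window in H3WT, 4.03% ± 3.70 in H3R2C, 11.3% ± 3.8 in H3R8C and 16.8% ± 2.3 in H3R26C (SD, n = 2 each), and 11.9% in the H3R17C library. The H3R2C libraries, at 6.64% and 1.41%, lay below all others, of which the lowest was 8.66%.

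**Figure D2:**
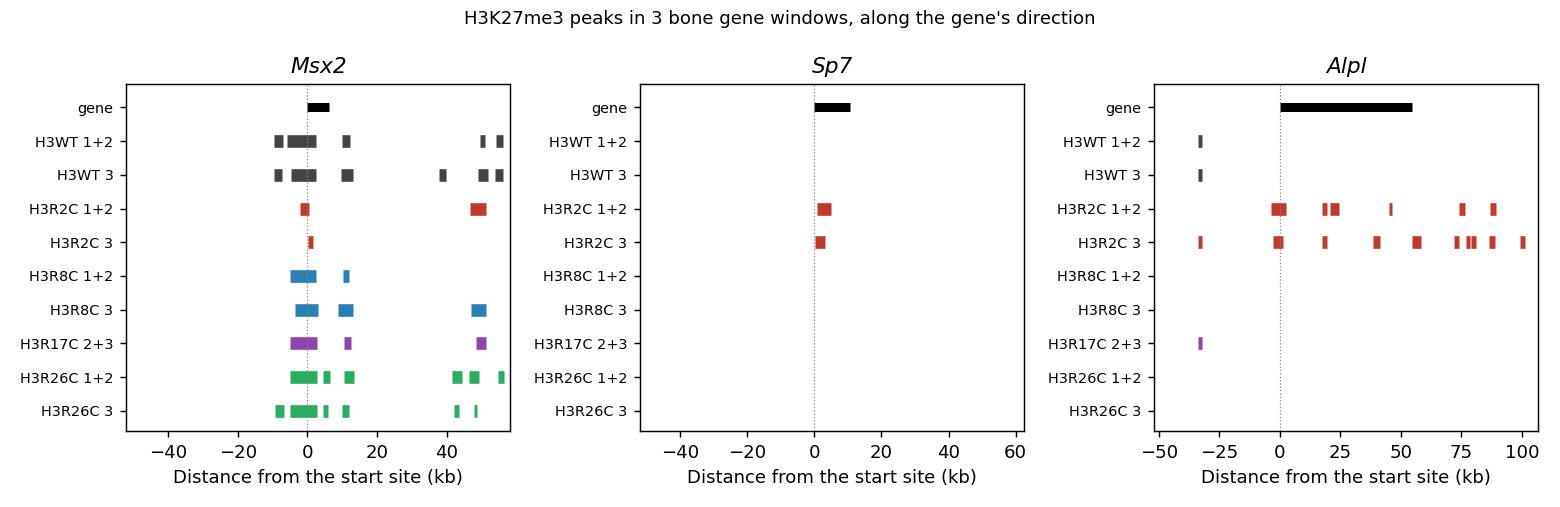
H3K27me3 peaks in the windows of Msx2, Sp7 and Alpl. The horizontal axis is distance from the start site in kb along the direction of the gene, the black bar is the gene, and each row is a library coloured by genotype. The broad block across the Msx2 start is reduced to a short block in both H3R2C rows, whereas the Sp7 and Alpl starts carry blocks in the H3R2C rows and in no other row.

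Sp7 showed the opposite pattern. This gene for osterix, on the minus strand at chr15:102356606-102367182, had a peak in both H3R2C libraries and none in its window in the other 7, where the nearest peak lay 315 to 325 kb away. The H3R2C peaks began 0.882 and 0.232 kb inside the gene and covered 37.8% and 28.8% of it. The region, chr15:102362301-102366950, had a scaled signal of 0.347 and 0.397 in H3R2C and 0 in every other library. Both values were above the lowest signal listed in any of the 9 libraries (at most 0.189). The H3R2C mean was 0.37 ± 0.04 (SD, n = 2), and the region qualified through H3R2C alone, so the difference is given as a description. Chromosome 15 had a median difference of 0.48 between H3R2C and H3WT over its 265 regions called in every library.

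Alpl had 4 regions in its window that were listed in both H3R2C libraries and in no library of another genotype. In H3R2C a block lay across its first start (chr4:137793751-137800150), from 3.8 kb upstream to 2.6 kb inside the gene, with a scaled signal of 0.597 and 0.577, and in the other 7 libraries the value was 0. The H3R2C mean was 0.59 ± 0.01 (SD, n = 2), and the region qualified through H3R2C alone, so the difference is given as a description. The chromosome 4 median differed by 0.09 between H3R2C and H3WT over 292 regions. Of the other 3 regions, one lay in Alpl itself, 17.3 to 19.4 kb from the start (chr4:137776951-137779100), at 0.177 and 0.235. The others lay over the neighbouring gene Rap1gap, at 0.151 and 0.235 (chr4:137719951-137724400) and at 0.240 and 0.308 (chr4:137707301-137710200). Like the start region they qualified through H3R2C alone, and the weakest value, 0.151, was near the lowest signal of that list, 0.149. A region 32 to 34 kb upstream of Alpl (chr4:137828401-137830250) showed no such pattern. It stood at 0.223 and 0.230 in H3WT, 0 and 0.247 in H3R2C, 0.167 in H3R17C and 0 in H3R8C and H3R26C. It qualified through H3WT alone, so these values are a description, and it passed in no comparison. H3K27me3 peaks covered 12% and 15.7% of the Alpl window in the H3R2C libraries, 1.03% and 1.10% in H3WT, 0.970% in H3R17C and none of it in H3R8C and H3R26C. The H3R2C libraries listed 6 and 10 peaks there and the others 1 or none.

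**Figure D3:**
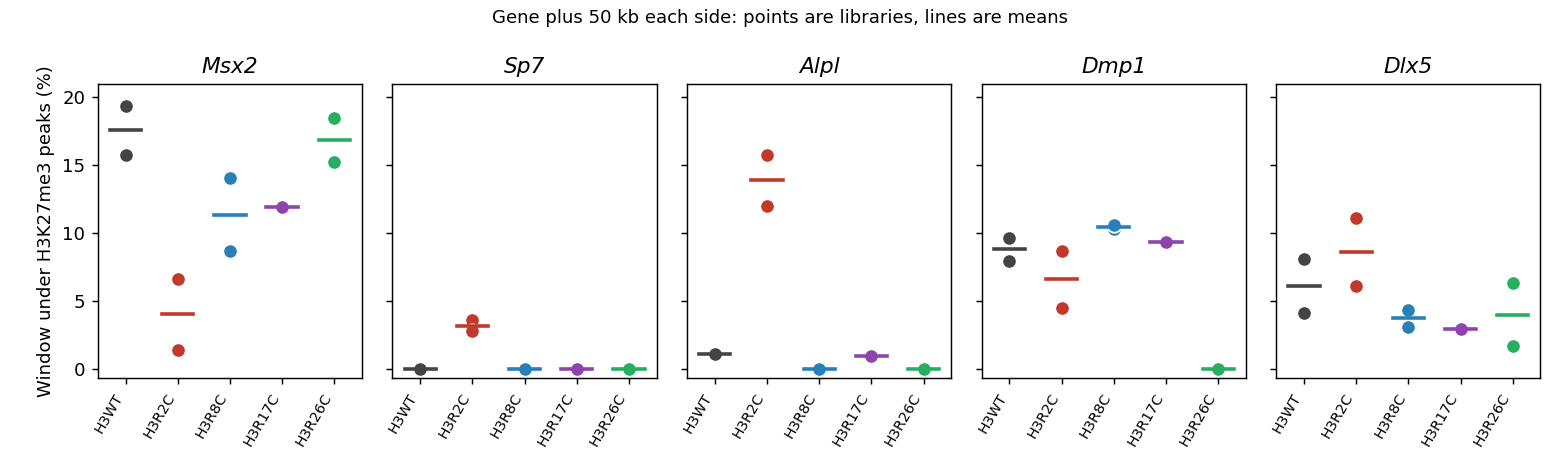
Share of each window (gene plus 50 kb on each side) that lay under H3K27me3 peaks, in percent, for the 5 genes with any peak. Points are libraries, 2 per genotype and 1 for H3R17C, and lines are means. H3R2C is lowest at Msx2 and highest at Alpl and Sp7, and H3R26C is at 0 at Dmp1.

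The other bone transcription factors carried no mark over their genes. Runx2, which directs commitment to the osteoblast lineage, spans 319 kb at chr17:44495987-44814797 with 9 annotated coding transcript starts spread over 80.1 kb, and no H3K27me3 peak touched the gene, its window or any of those starts in the 9 lists. The nearest peak lay 487 to 488 kb from its start in H3WT and H3R8C, 451 and 488 kb in H3R26C, and 311 and 312 kb in both H3R2C libraries. Dlx5 (chr6:6877805-6882085) had no peak over its start or body in any list. All 9 libraries had a peak in an intergenic region that starts 40.4 kb upstream of it (chr6:6922501-6936300), with a scaled signal of 0.632 and 1.03 in H3WT, 1.44 and 1.56 in H3R2C, 0.470 and 0.338 in H3R8C, 0.483 in H3R17C, and 0.954 and 0.411 in H3R26C. Both H3R2C values lay above all others, and the remaining genotypes overlapped. The difference between H3R2C and H3WT was 0.72 (SE 0.33, adjusted p = 0.165) and that between H3R2C and H3R26C was 0.97 (SE 0.33, adjusted p = 0.0599), so neither passed. The latter passed under 4 of 23 alternatives, which were a pseudocount of 1 (adjusted p = 0.0426), merging of peaks within 1 kb (1.21, adjusted p = 0.0293), regions with a peak in every library (0.97, adjusted p = 0.0177) and the fit without H3R26C replicates 1 and 2 (1.40, adjusted p = 0.0253).

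Among the matrix genes the start sites were bare in every genotype. Bglap, the osteocalcin gene, had its nearest peak 125 to 126 kb away in H3WT, H3R2C and H3R17C, 180 and 181 kb in H3R8C and 384 kb in H3R26C. Its copies Bglap2 and Bglap3 start 5.77 and 11.7 kb away and are nearly identical, so reads could be shared between them, and the absence of a peak refers to all 3 genes, which lie in 1 window. Dmp1, Ibsp, Mepe and Spp1 lie within 238 kb on chromosome 5, each window overlaps the next, and they are not independent observations. No peak was listed over any of these 4 genes.

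Upstream of this cluster, a region that holds the start of Dspp, the gene of dentin sialophosphoprotein, lies in the Dmp1 window (chr5:104163651-104175950, 26.7 to 39.0 kb before the Dmp1 start). It was listed in both libraries of H3WT (0.881 and 0.915), H3R2C (0.699 and 0.409) and H3R8C (1.18 and 1.14) and in the H3R17C library (1.34), and in neither H3R26C library. The H3WT mean was 0.90 ± 0.02 (SD, n = 2), and H3R26C was lower by -2.20 (SE 0.21, adjusted p = 0.00132). With no listed peak, the H3R26C libraries added no spread to this test. H3R2C was higher than H3R26C by 1.66 (SE 0.21, adjusted p = 0.00153), and against H3WT it gave -0.54 (adjusted p = 0.110). The difference from H3WT passed in limma with an equal number of peaks in each library (-0.65, adjusted p = 0.0327). It was -0.80 without H3R2C replicates 1 and 2. When a region counted as called only where peaks covered at least 50% of it, neither H3R26C difference passed any longer. H3R26C against H3WT was then -1.51 (adjusted p = 0.103), and H3R2C against H3R26C was 0.68 (adjusted p = 0.316). The same block set the distance from the other matrix genes to their nearest peak. From Ibsp it was 123 to 127 kb in the 7 other libraries and 357 and 921 kb in H3R26C, and from Mepe it was 149 to 153 kb against 383 and 895 kb. Dmp1 itself, which regulates mineral deposition, had its nearest peak 26.7 to 30.3 kb away in those 7 libraries, and 261 and 1018 kb away in H3R26C.

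**Figure D4:**
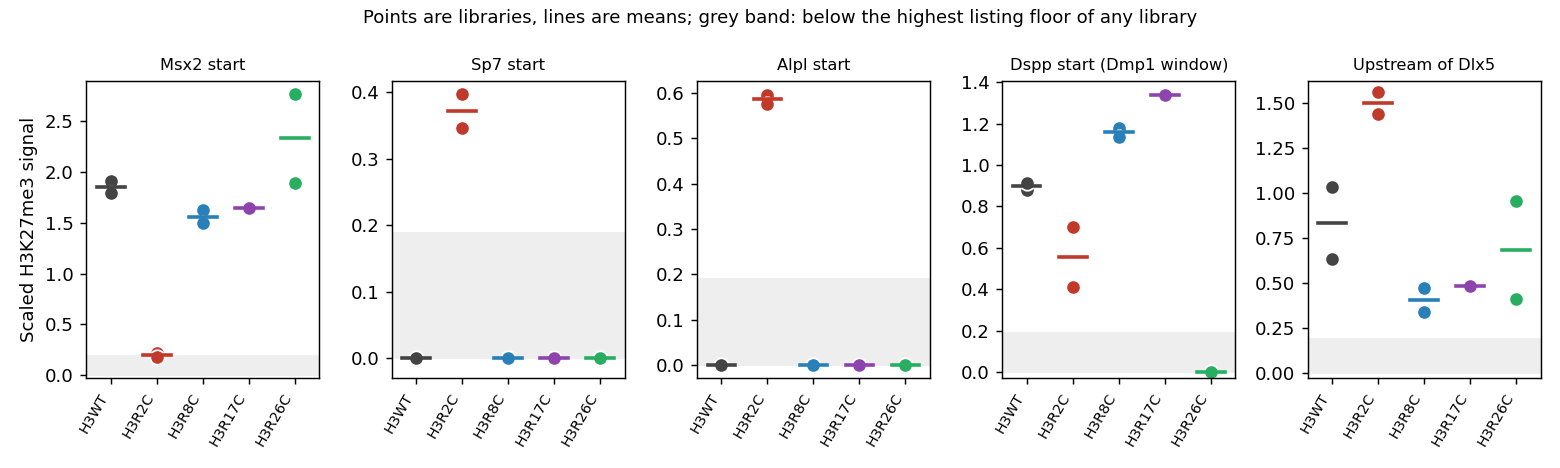
Scaled H3K27me3 signal (1 is the median of regions shared by all libraries) at 5 regions of the bone gene windows, each on its own vertical axis. Points are libraries, lines are means, 0 means no listed peak, and the grey band reaches up to 0.189, the highest of the lowest values that a library lists. H3R2C is near the band at the Msx2 start and is the one genotype above 0 at the Sp7 and Alpl starts, and H3R26C is at 0 at Dspp.

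Taking all windows together, 15 of the 20900 consensus regions lay in them, 7 of these in the Msx2 window and 5 in that of Alpl. Between H3R2C and H3WT, 3 were lower, all of them at Msx2 (12.4% of all regions were lower), and 5 were higher, 4 at Alpl and 1 at Sp7 (17.9% of all regions). All 5 higher regions, and 1 of the 3 lower ones, qualified through the single genotype in which they were high, so these counts are descriptions. Without either H3WT library the count of lower regions fell to 1, the Msx2 start region. Between H3R26C and H3WT, 1 was lower, at Dspp (7.21% of all regions), and 2 were higher, both at Msx2 (8.55%) and both through H3R26C alone. The higher count was 4 without H3R26C replicates 1 and 2, and the lower count was 2 without any 1 library of H3R2C or H3R26C. H3R8C had no region past the threshold in limma in either direction (2.56% of all regions were lower and 3.3% higher), with 2 lower and 0 higher at an unadjusted p under 0.05. H3R17C had none either (1.16% lower and 0.732% higher), with 1 lower and 0 higher at an unadjusted p under 0.05. These lower regions were chr13:53416651-53419300 in both genotypes and chr4:137828401-137830250 in H3R8C. They qualified through H3WT alone, so these counts are descriptions. Between the 2 mutants themselves, 4 regions were lower in H3R2C than in H3R26C, all at Msx2 (19% of all regions), and 6 were higher, 4 at Alpl, 1 at Sp7 and 1 at Dspp (22.7%). The regions at Alpl and Sp7 qualified through H3R2C alone. At Msx2, chr13:53428801-53431600 and chr13:53466701-53468700 qualified through H3R26C alone. Their direction was set by the rule for regions, so these counts too are descriptions. The contrasts with H3WT share the H3WT libraries, so their values are set side by side and not compared as counts. The median difference over the 15 regions was 0 in each contrast with H3WT and 0.50 between H3R2C and H3R26C, against 0 over all regions in each. These medians include the regions whose direction was set by the rule.

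The HA lists hold peaks of the antibody to the tag, with no IgG control set against them here. Sp7 had an HA peak over its start in all 10 lists, as did 0.707% of all genes, and HA peaks covered 17.9% to 76.1% of its window. Its H3R2C region of H3K27me3 overlapped an HA peak in all 10 lists too. At Msx2 no HA peak lay in the window in any list, and at Dlx5 the window held HA peaks in both H3R2C libraries and in no other. Ibsp, Spp1, Dmp1, Dlx5 and Msx2 had no HA peak over the start in any list, where 57.2% of all genes had none. Runx2 had one in 2 of the 10 lists (1 H3WT and 1 H3R2C library), Alpl in 3 (1 library each of H3WT, H3R8C and H3R26C), Bglap in 5 and Mepe in 1. Bglap had it in both H3R26C libraries and in 1 each of H3WT, H3R2C and H3R8C, so replicates of a genotype differed at Runx2, Alpl, Bglap and Mepe. The HA lists covered from 42.9 to 213 Mb of the genome, and the covered share of a window moves with that length. The H3K27me3 block at the Alpl start overlapped an HA peak in 5 of the 10 lists, and the Dspp region in 1.

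Of 24 further genes of bone formation and turnover, such as collagens, Wnt receptors, hormone receptors and mineral enzymes, 3 had an H3K27me3 peak over the start in any list, Sost, Pth1r and Fgf23. Sost, the osteocyte gene for the Wnt inhibitor sclerostin, had it in all 9, and its region (chr11:101947151-101969350) stood at 3.75 ± 0.47 in H3WT, 3.56 ± 0.28 in H3R26C and 4.48 ± 0.83 in H3R2C (SD, n = 2 for each genotype), and passed in no comparison. Pth1r, the receptor of parathyroid hormone, had a start-site peak in both H3R2C libraries and no other, in a region (chr9:110739051-110753700) that stood at 0.42 ± 0.05 in H3WT, 1.91 ± 0.05 in H3R2C and 0 in H3R26C and H3R8C (SD, n = 2 each). H3R2C was higher than H3WT by 1.69 (SE 0.22, adjusted p = 0.00248), and H3R26C and H3R8C were lower by -1.42 (adjusted p = 0.00970 and 0.0172). The H3R26C and H3R8C libraries at 0 added no spread to these tests. The H3R17C library also stood at 0, with the same difference of -1.42, which did not pass. The H3R2C difference at Pth1r did not pass with the signal as deposited or with the maximum signal, where it was 0.48 (adjusted p = 0.293). The H3R26C difference did not pass with the signal as deposited or where peaks had to cover 50% of a region, where it was 0. Like Sp7, Pth1r had an HA peak over its start in all 10 HA lists. Fgf23, the osteocyte hormone that controls phosphate, stood at 0.55 ± 0.42 in H3R2C and 0 in H3WT (SD, n = 2 each). The region was also listed in H3R8C (0.24 ± 0.01), H3R26C (0.17 ± 0.05; SD, n = 2 each) and the H3R17C library (0.26). H3R2C was higher than H3WT by 1.56 (SE 0.40, adjusted p = 0.0308), and this lost the call without any 1 library of H3WT, H3R8C or H3R26C. Against H3R26C it gave 0.82 (adjusted p = 0.160). Both H3R8C libraries also had a start-site peak. Only these 3 of the 24 genes had a consensus region over the start, and 2 of the 3 were higher in H3R2C than in H3WT, beside the 17.9% of all regions given above. Over the starts of 10 cartilage genes, 5 had a consensus region, with 1 lower in H3R2C than in H3WT (Col9a1), 2 higher in H3R26C (Acan and Sox6), 1 higher in H3R8C (Sox6) and 3 lower in H3R2C than in H3R26C (Acan, Ihh and Sox6). The shares over all regions were 12.4%, 8.55%, 3.3% and 19% in that order. Of 10 fat genes 1 (Lep) had such a region and it passed in no comparison, and none of 6 housekeeping genes had one.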

How the data were processed

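CUT&RUN peak lists of 30 samples (anti-H3K27me3 and anti-HA, 5 genotypes) were used. Samples with IgG or anti-H3K4me3 were not used here. According to the study's methods, the authors mapped reads to mm10 by Rsubread and took peaks from SEACR (version 1.3 in the submitters' processing notes; stringent, norm, 0.01). The deposited lists give total and maximum signal (coverage) per peak, not scaled to depth, so a weak block can be listed in 1 library and missed in another. Handling of duplicate reads was not given in the sources used here. Genotype, antibody and replicate came from the sample titles, and identical lists were counted once.

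H3K27me3 peaks of the 8 libraries other than H3R17C were merged, and a merged region was retained if both libraries of some genotype had a peak in it (20900 regions). Summed signal was divided by the library median over 5407 regions called in all 9 libraries, and log2(scaled signal + 0.25) was fitted in limma 3.58.1 (R 4.3.3, eBayes with trend) over 9 libraries and 5 genotypes. P-values were adjusted by Benjamini-Hochberg over all 20900 regions, with a threshold of 0.05. The script was tested on simulated data. Start sites are the 5′ ends of GENCODE genes. Regions were named if they lay over a member or its start or passed in any contrast, and further bone genes if both H3WT libraries had a start-site peak or the start region passed. Regions that passed in no contrast were described beside them, as were those of the Dmp1 and Dlx5 flanks. The members, lists and tests were chosen with earlier results of these data known. Alternatives covered the pseudocount, scaling, peak and region filters, window and start widths, the model and each library left out. Shares of windows and distances were not tested.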

Additional observations from a re-analysis of the deposited data

Results flagged for a closer look

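At 10 regions of the bone gene windows the direct limma contrast of H3R2C with H3R26C gave an adjusted p under 0.05. It is a test only at the Msx2 start, at 8.8 to 13.3 kb past it and at Dspp. The others entered the fit through a single genotype, so their values are descriptions. Values are log2 differences of scaled signal, H3R2C minus H3R26C. At Msx2 they were -2.50 over the start, -1.33 at 8.8 to 13.3 kb past it, -0.73 in the 3′ end of the gene and -0.88 at 41.5 to 44.3 kb past the start. With chromosome medians set to 0, an alternative chosen after seeing the data, the start region alone of these passed. The Msx2 regions with -0.73 and -0.88 entered the fit through H3R26C alone, and the regions at Sp7 and Alpl through H3R2C alone, so their direction was set by the rule for regions. At Sp7 the difference was 1.31. At Alpl it was 1.74 over the start, 0.86 inside the gene, and 0.82 and 1.06 over Rap1gap. At Dspp, in the Dmp1 window, it was 1.66, and where peaks had to cover 50% of a region it was 0.68 and did not pass (adjusted p = 0.316). The part of chromosome-wide differences, depth or listing level in these values was not tested.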

How the results depend on the processing

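Members with a start-site peak numbered 3 in H3R2C and 1 in every other genotype. The 33 alternatives had start sites widened or narrowed, other transcript starts, fewer peaks or a library left out. All were rated as the same, by a rule that allows small shifts (for called regions, 3 and 2 were rated as the same). The Sp7 peak of H3R2C replicates 1 and 2 began 0.882 kb inside the gene, outside a start site narrowed to 0.5 kb. The Msx2 peak of H3R2C replicate 3 had a total signal of 4400, near the lowest of that list, 4250. The difference between H3R2C and H3WT over the Msx2 start passed under all 23 alternatives, with a highest adjusted p of 0.00710. The Sp7 and Alpl start regions entered the fit through H3R2C alone, and gave no value when a peak in every library was required. Counts of called regions in the windows moved more, and where no value shows the cause it was not tested. For H3R2C against H3WT, lower regions numbered 1 with the upper 50% of peaks, with regions that had a peak in every library, with chromosome medians set to 0 and at an adjusted p under 0.001, and higher regions 3 and 0 under the first and second of these, which drop regions by construction. For H3R26C against H3WT, lower regions numbered 2 with an equal number of peaks and with chromosome medians set to 0, and 0 with an overlap of 50%, with a peak in every library, at an adjusted p under 0.001 and in a window of 20 kb. Higher regions there numbered 0 with the upper 50%, an equal number of peaks or a peak in every library, and 1 at an adjusted p under 0.001 or in a window of 20 kb. For H3R8C and H3R17C, lower regions numbered 1 with an equal number of peaks. For H3R2C against H3R26C, lower regions numbered 1 with the upper 50%, a peak in every library or chromosome medians set to 0, and 2 with an equal number of peaks or at an adjusted p under 0.001, and higher regions 3 and 1 with the upper 50% and a peak in every library. Leaving out 1 library at a time gave 1 to 4 lower and 5 to 5 higher for H3R2C against H3WT, 1 to 2 lower and 2 to 4 higher for H3R26C, 0 to 2 lower for H3R8C (1 without either H3R2C library, 2 without either H3R26C library) and for H3R17C (1 without H3R2C replicate 3, 2 without either H3R26C library), and 3 to 5 lower and 6 to 7 higher for H3R2C against H3R26C. At chr13:53479901-53482700, 6.8 to 9.6 kb upstream of Msx2, H3R26C minus H3WT was -0.09. It was 0.60 without H3R26C replicates 1 and 2 and -0.83 without H3R26C replicate 3. The region qualified through H3WT alone, so these differences are descriptions.

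With the replicate number as a block, the counts were 3 lower and 5 higher for H3R2C against H3WT, 1 and 2 for H3R26C, 0 and 0 for H3R8C, and 4 and 6 for H3R2C against H3R26C, as without it. The numbers share no stated batch, and correlations of replicate differences between genotypes ran from -0.01 to 0.21, so they were not taken as pairs. The lists do not show signal below their lowest peak.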

Other observations

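The H3R17C list labelled H3K27me3 replicate 1, which was left out of every comparison, held 37092 peaks and had a peak over the start at Runx2, Dmp1 and Dlx5, 3 of the 10 bone genes, and none over the Msx2 start. Over all protein-coding genes, 38.6% had a start-site peak in that list, against 8.83% in the H3R17C library that was used.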
